A study of Mus musculus with 24 samples.

Results

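The urea cycle and the enzymes that strip nitrogen from amino acids were followed in mice that lack Thumpd1. The 9 genes described are Cps1, Otc, Ass1, Asl, Got1, Gpt2, Tat, Gls2 and Sds, taken by symbol from the 55450 genes of the deposited count table. Total RNA was sequenced from liver, cerebellum and testes of wild-type (WT) and Thumpd1 knockout (KO) mice, with 4 libraries for each tissue and genotype and 24 libraries in all. The KO line was made by injecting Cas9 with a pair of guides against Thumpd1 into C57BL/6N eggs and was kept on a C57BL/6 background. WT animals were age-matched littermates, mice of either sex were 6 to 12 weeks old, and the labels name no treatment. Libraries are named here by the replicate numbers in the labels, 1 to 4 for WT and 5 to 8 for KO. Thumpd1 encodes an RNA-binding partner of the acetyltransferase Nat10, which acetylates cytidine in certain tRNAs.

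Breaking down amino acids releases nitrogen, which aminotransferases, glutaminase and dehydratases pass on as glutamate, aspartate or free ammonia. Hepatocytes turn it into urea, with Cps1 and Otc acting in mitochondria and Ass1 and Asl in the cytosol, and most of the cycle runs in periportal hepatocytes. Glucagon and glucocorticoids raise many of these enzymes during fasting or on a high-protein diet, and several follow feeding and the time of day.

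The liver libraries held 18145725 to 37889615 counts, the cerebellum libraries 16353797 to 24728845 and the testes libraries 27273231 to 36621604. Thumpd1 itself was at 9.74 ± 0.401 CPM in WT liver (SD, n = 4) and 0.0567 ± 0.0436 in KO liver. It was at 22.4 ± 1.06 against 0.0563 ± 0.0464 CPM in cerebellum and at 25.2 ± 0.840 against 0.955 ± 0.200 CPM in testes. In liver, 6 abundant noncoding RNAs took an uneven part of each library, 17.5%, 19.0%, 23.1% and 31.0% of counts in WT replicates 1 to 4 and 27.2%, 26.4%, 18.8% and 17.5% in KO replicates 5 to 8. A CPM value is a gene's share of all counts in a library, scaled to a fixed total, so a larger share for these RNAs leaves a smaller share for the other genes together. Libraries with neighbouring numbers (1 and 2, 3 and 4, 5 and 6, 7 and 8) were alike in cerebellum and in part elsewhere. The chi-square between the counts of libraries of a group was 3.20 to 5.47 per degree of freedom for neighbours in cerebellum and 5.58 to 12.3 for other pairs. In liver the neighbours WT replicates 3 and 4 differed most of all pairs of a group (346, against 70.3 to 252 for pairs that are not neighbours), and in testes WT replicates 1 and 2 (12.4) differed more than any other WT pair. In cerebellum the summed CPM of 5 choroid plexus markers was 1037 and 1060 in WT replicates 1 and 2, 9.42 and 9.54 in WT replicates 3 and 4, 12.3 and 11.9 in KO replicates 5 and 6, and 352 and 350 in KO replicates 7 and 8. No pair of libraries had the same counts, and the closest pair differed by a chi-square of 2.31 per degree of freedom. That value cannot tell whether libraries came from the same RNA. The study's methods describe 4 biological replicates and no shared animal, and whether neighbouring libraries came from 1 animal or 1 dissection was not tested. The calls were therefore also made with neighbouring libraries summed, which leaves 2 samples a group, an alternative chosen after seeing the data. Few genes of any kind passed between the genotypes in that form, 11 of 12894 in liver, 47 of 16272 in cerebellum and 2 of 19425 in testes.

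The promoter windows (250 bases before and 50 after the start site, RefSeq, build GRCm38.p6) of 5 of the 9 genes were in the reference table. Those of Tat and Gpt2 are shown because both genes were lower in KO liver, and that of Got1 because its KO liver libraries fell into separate levels. They lie at chr8:109990186-109990485 on the plus strand (Tat), chr8:85492326-85492625 on the plus strand (Gpt2) and chr19:43524556-43524855 on the minus strand (Got1). Capitals mark the only match to the motifs searched.
Tat promoter: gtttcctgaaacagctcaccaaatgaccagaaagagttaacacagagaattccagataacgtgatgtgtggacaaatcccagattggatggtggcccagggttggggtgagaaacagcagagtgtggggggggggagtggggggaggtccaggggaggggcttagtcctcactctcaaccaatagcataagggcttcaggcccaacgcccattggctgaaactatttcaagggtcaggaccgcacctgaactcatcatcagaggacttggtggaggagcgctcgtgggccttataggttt
Gpt2 promoter: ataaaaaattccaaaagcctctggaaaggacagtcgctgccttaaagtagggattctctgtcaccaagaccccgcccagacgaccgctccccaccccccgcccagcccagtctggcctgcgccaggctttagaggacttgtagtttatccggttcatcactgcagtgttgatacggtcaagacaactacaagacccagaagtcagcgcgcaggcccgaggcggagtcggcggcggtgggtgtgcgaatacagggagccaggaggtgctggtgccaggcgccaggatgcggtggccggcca
Got1 promoter: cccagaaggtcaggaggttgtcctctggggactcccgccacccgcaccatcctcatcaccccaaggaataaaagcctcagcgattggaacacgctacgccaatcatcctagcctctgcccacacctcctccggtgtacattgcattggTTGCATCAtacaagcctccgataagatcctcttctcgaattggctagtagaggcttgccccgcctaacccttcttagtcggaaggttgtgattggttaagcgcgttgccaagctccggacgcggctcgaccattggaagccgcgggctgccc

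The following 6 motifs were searched on both strands of the 5 windows. The share of all 32544 promoters of the table that hold each is 1.80% for the cAMP response element TGACGTCA, 20.9% for its shorter form TGACG (which the full element contains), 18.9% for the glucocorticoid receptor site TGTTCT, 10.8% for the C/EBP site TTGCNNAA, 13.6% for the TATA box TATAAA and 3.91% for the C/EBP-ATF response element TGATGNAA. The Got1 window holds TGATGNAA on the minus strand relative to the gene, at -102 from the start site. None of the 6 motifs was found in the windows of Tat, Gpt2, Ass1 or Otc, which says only that those letters are not in those 300 bases.

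In liver, Tat, Sds and Gpt2 fell in KO mice, and none of the 9 genes rose (limma-voom with quantile normalization, Benjamini-Hochberg adjustment over the 12816 genes tested). Across all genes tested in liver 5.91% passed the test, 3.12% lower and 2.79% higher in KO. The median log2 change of the 9 genes was -0.11, against -0.00 over all genes tested, with 7 estimates below 0 and 2 above. Of the 5 genes that act on amino acids outside the cycle, Got1 and Gls2 did not pass the test, and neither did Cps1, Otc, Ass1 and Asl of the urea cycle. No test compared these groups of genes.

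Tat (ENSMUSG00000001670.13, chr8:109990437-109999803 on the plus strand, build GRCm38) encodes tyrosine aminotransferase, which opens tyrosine breakdown in the liver. Its level was 839, 836, 801 and 680 CPM in WT replicates 1 to 4 and 581, 600, 546 and 547 CPM in KO replicates 5 to 8. Every KO library lay below every WT library. The means were 789 ± 74.7 and 568 ± 26.5 CPM (SD, n = 4 each), and the log2 change was -0.51 ± 0.08 (SE, limma adjusted p = 0.00575). With the 6 noncoding RNAs left out of the totals, the means were 1019 ± 24.7 and 737 ± 80.4 CPM, and the WT libraries ranged from 985 to 1042 CPM and the KO libraries from 663 to 814 CPM.

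Sds (ENSMUSG00000029597.14, chr5:120476526-120483932 on the plus strand) encodes serine dehydratase, which turns serine into pyruvate and ammonia. It was at 74.4, 69.4, 57.5 and 52.8 CPM in WT replicates 1 to 4 and at 37.2, 31.2, 47.2 and 44.6 CPM in KO replicates 5 to 8. The groups did not overlap, and the highest KO library was KO replicate 7. Sds fell by 0.62 ± 0.11 on the log2 scale (limma adjusted p = 0.00951), from 63.5 ± 10.1 to 40.1 ± 7.26 CPM. Gm15690 and Plbd2 overlap Sds on the other strand, and the strand setting of the counting is not given in the sources used here, so reads of these genes could be mixed.

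Gpt2 (ENSMUSG00000031700.11, chr8:85492576-85527560 on the plus strand) encodes the mitochondrial alanine aminotransferase, which exchanges nitrogen between alanine and glutamate. WT replicates 1 to 4 gave 502, 499, 489 and 458 CPM, and KO replicates 5 to 8 gave 373, 379, 376 and 363 CPM. These were the tightest groups among the genes that fell, and the gap between them was wider than either range. The log2 change was -0.34 ± 0.07 (limma adjusted p = 0.0174), from 487 ± 20.1 to 373 ± 7.03 CPM. Leaving out WT replicate 3 gave an adjusted p of 0.0517 and leaving out KO replicate 8 gave 0.0533. A near copy, Gm5049, shares 92.2% of 1328 bases with Gpt2 and had at most 1 count in any liver library.

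With neighbouring liver libraries summed, no gene of the 9 passed the limma test, although the changes kept their size. Tat was then at -0.50 (adjusted p = 0.329), Sds at -0.62 (adjusted p = 0.275) and Gpt2 at -0.33 (adjusted p = 0.449). With KO replicates 5 and 6, the shallowest liver libraries, left out together, 6 genes passed: Tat, Sds, Gpt2, Gls2 and Ass1 lower and Got1 higher, in a fit where 8.23% of all 12549 genes tested passed.

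**Figure D1:**
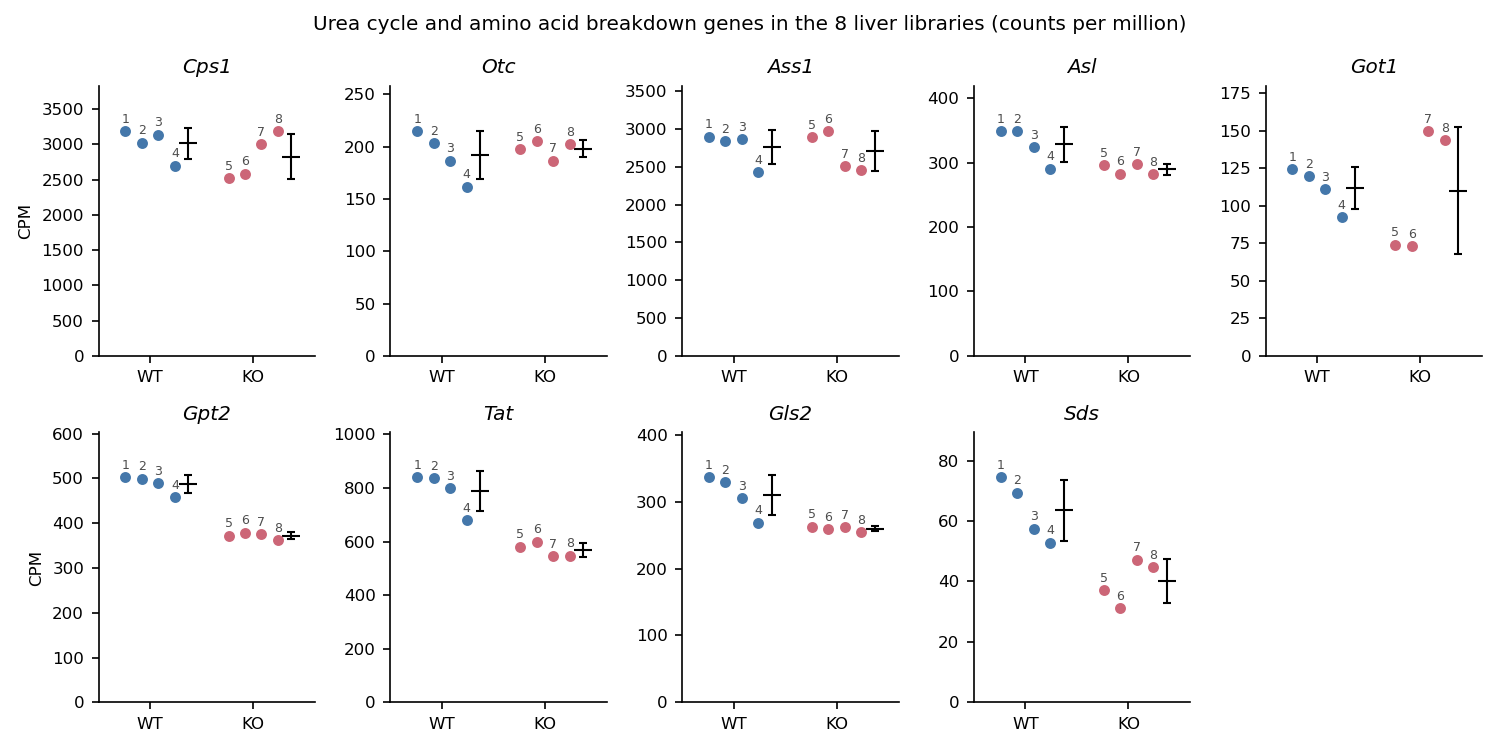
CPM (y axis, from 0) of the 9 genes in the 8 liver libraries, one panel a gene, with each point labelled by its replicate number and the mean ± SD (n = 4) as a bar beside each genotype. For Gpt2, Tat, Sds and Gls2 all KO points lie below all WT points, and for Got1 KO replicates 5 and 6 lie below and 7 and 8 above every WT point.

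Gls2, the liver-type glutaminase, which releases ammonia from glutamine, was at 336, 329, 306 and 269 CPM in WT and 263, 259, 262 and 255 CPM in KO replicates 5 to 8. No library overlapped between the genotypes, but WT replicate 4 lay close to the highest KO library. The log2 change of -0.17 ± 0.05 did not pass the test (limma adjusted p = 0.0939). It passed with trimmed-mean (TMM) scaling (log2 -0.24, adjusted p = 0.0277) and with edgeR and DESeq2. It also passed with the quantile scaling kept, by sample weights (-0.20, adjusted p = 0.0224) and without KO replicates 5 and 6 (-0.23, adjusted p = 0.0280), and in the fit of all 24 libraries (-0.30, adjusted p = 0.000852). Spryd4 overlaps Gls2 on the other strand. In all, 4 of the 9 genes had every KO library below every WT library in CPM, against 5.31% of all genes tested. With the noncoding RNAs left out of the totals these were 5, the same 4 and Asl, against 10.3% of all genes.

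Cps1, Otc, Ass1 and Asl, which act in the urea cycle proper, did not pass the test in liver. Cps1, carbamoyl phosphate synthetase, which fixes ammonia at the entry of the cycle, was at 3192, 3027, 3141 and 2697 CPM in WT and 2526, 2584, 3004 and 3186 CPM in KO. In these values the KO libraries spanned more than the WT libraries did, with KO replicates 5 and 6 low and 7 and 8 within the WT range. With the 6 noncoding RNAs left out of the totals, WT libraries ranged from 3738.5 to 4085 CPM. KO replicates 5 to 8 were then at 3468, 3509, 3700 and 3862 CPM, and only KO replicate 8 lay within the WT range. The log2 change was -0.11, with an interval (2 standard errors either side) of -0.22 to 0.01 (limma adjusted p = 0.290). For Otc, ornithine transcarbamylase, the next mitochondrial enzyme, WT livers averaged 192 ± 23.0 CPM and KO livers 198 ± 8.22 CPM, with a log2 change of 0.09 and an interval of -0.04 to 0.22.

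Ass1 (ENSMUSG00000076441.9, chr2:31470207-31520672 on the plus strand), argininosuccinate synthase, joins citrulline and aspartate. It was at 2900, 2839, 2868 and 2425 CPM in WT and at 2890, 2973, 2504 and 2453 CPM in KO liver. With the 6 noncoding RNAs left out of the totals, KO replicates 5 and 6 (3968 and 4037 CPM) lay above every WT library (3507 to 3729.5 CPM) and KO replicates 7 and 8 (3085 and 2973 CPM) below every one. The log2 change was 0.02 with an interval of -0.22 to 0.26 (limma adjusted p = 0.950), and its sign depended on the scaling. Without KO replicates 5 and 6 it was -0.25 (adjusted p = 0.0453). A pseudogene, Gm5424, is 99.5% identical to Ass1 over 1240 bases and was given 2523 to 3982 counts in the liver libraries, so the split of reads between them is uncertain.

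Asl, argininosuccinate lyase, which cleaves argininosuccinate into arginine and fumarate, was at 349, 349, 324 and 290 CPM in WT and 296, 283, 298 and 282 CPM in KO. Only WT replicate 4, the library with the most noncoding RNA, lay within the KO range. The log2 change was -0.11 with an interval of -0.22 to 0.00 (limma adjusted p = 0.277), while it passed with DESeq2 (-0.17, adjusted p = 0.0339) and in the fit of all 24 libraries (-0.22, adjusted p = 0.00632).

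Got1 (ENSMUSG00000025190.13, chr19:43499752-43524605 on the minus strand) encodes the cytosolic aspartate aminotransferase, which exchanges nitrogen between aspartate and glutamate. WT liver held 124, 120, 111 and 92.2 CPM, and KO liver held 74.1 and 73.0 CPM in replicates 5 and 6 but 150 and 144 CPM in replicates 7 and 8. One pair of KO libraries thus lay below all WT libraries and the other above them. The means were 112 ± 14.2 and 110 ± 42.3 CPM, and the log2 change of -0.05 had an interval of -0.45 to 0.35 (limma adjusted p = 0.912). Without KO replicates 5 and 6 the change was 0.37 (adjusted p = 0.0123), so the library pair decided both its sign and its call. The same KO libraries differed in depth (18145725 and 19958739 counts against 30258515 and 37889615) and in 6 hepatocyte markers, whose summed level was 61965 and 63548 CPM in replicates 5 and 6 and 82633 and 89596 CPM in replicates 7 and 8. They also differed in the share of the 6 noncoding RNAs (27.2% and 26.4% against 18.8% and 17.5%), which enters all these CPM values. With those RNAs left out of the totals, Got1 was at 102 and 99.1 CPM in KO replicates 5 and 6. It was then at 184 and 174 CPM in KO replicates 7 and 8 and at 134 to 151 CPM in WT. The part of any of these differences in the Got1 split was not tested.

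In cerebellum 6 of the 9 genes were expressed highly enough to be tested, and Ass1 rose in KO mice. Of all 16225 genes tested in cerebellum 6.44% passed, 3.93% higher and 2.51% lower in KO. Ass1 was at 4.73, 6.28, 5.72 and 4.53 CPM in WT and at 9.46, 7.78, 7.40 and 7.59 CPM in KO, without overlap. The means were 5.32 ± 0.830 and 8.06 ± 0.949 CPM, and the log2 change was 0.57 ± 0.12 (limma adjusted p = 0.0172). The call was lost without WT replicate 1 (adjusted p = 0.0645), WT replicate 4 (0.0552) or KO replicate 5 (0.0541), with neighbouring libraries summed (log2 0.56, adjusted p = 0.106) and in the fit of all 24 libraries (log2 0.57, adjusted p = 0.677). Between 3.72 and 8.18 counts went to Gm5424 in cerebellum. Cell type markers differed with genotype there as well. Of 6 granule cell markers 3 were lower in KO (Gabra6 by 0.26, Neurod1 by 0.22 and Zic1 by 0.21 on the log2 scale), beside 2.51% of all genes, and of these Gabra6 alone passed with neighbouring libraries summed (adjusted p = 0.0498). The 6 markers together were at 3739 to 3794 CPM in WT and 3323 to 3595 CPM in KO, without overlap. Pcp2 of 5 Purkinje cell markers, Gfap of 6 astrocyte and Bergmann glia markers and Mag of 5 oligodendrocyte markers were higher by 0.24, 0.23 and 0.27, and Alas2 of 3 tested blood cell markers was lower by 0.58, and none of these 4 passed with neighbouring libraries summed. The part of these shifts in the level of Ass1 was not tested.

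Cps1 and Got1 also had every KO cerebellum library above every WT library, so that 3 of the 6 tested genes did, against 8.79% of all genes. Cps1 was low, at 1.73, 1.54, 1.25 and 1.63 CPM in WT and 1.87, 2.02, 2.15 and 2.42 CPM in KO, and its log2 change of 0.39 ± 0.17 did not pass (limma adjusted p = 0.175). Got1 was at 148 ± 2.21 and 155 ± 5.58 CPM, a log2 change of 0.08 ± 0.03 (limma adjusted p = 0.190). Gpt2 was at 36.8 ± 1.57 and 38.6 ± 2.41 CPM, Gls2 at 17.1 to 20.1 CPM in WT and 17.6 to 18.8 CPM in KO, and Asl at 8.05 ± 0.811 and 7.94 ± 0.572 CPM. Their log2 changes, from -0.08 to 0.06, had adjusted p values of 0.499 or more. The other 3 genes were close to absent: Otc, Tat and Sds had at most 1 count in any library.

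**Figure D2:**
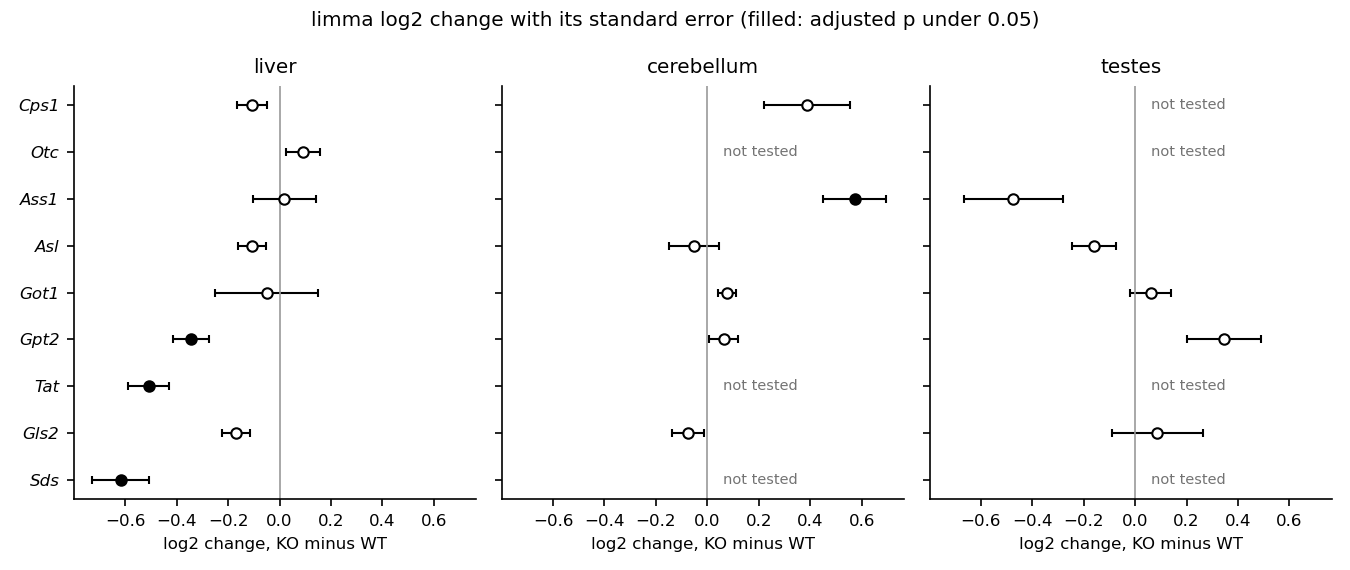
The limma log2 change (x axis, KO minus WT) of the 9 genes in liver, cerebellum and testes, with bars of 1 standard error and filled points for adjusted p under 0.05. Tat, Sds and Gpt2 are filled on the negative side in liver, Ass1 on the positive side in cerebellum, and no point is filled in testes.

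In testes 5 of the 9 genes were tested and none passed limma's test, although 20.5% of the 19329 genes tested did, 10.7% lower and 9.74% higher in KO. Of the 5, 2 had an unadjusted p under 0.05 in limma (Ass1 and Gpt2), and edgeR and DESeq2 called none. By that p they ranked only 6088 (Ass1) and 6311 (Gpt2) among the 19329 genes, so values this small were common in testes. Ass1 was at 48.2, 41.2, 50.6 and 48.4 CPM in WT and at 27.3, 26.9, 58.0 and 34.4 CPM in KO testes. Of the KO libraries 3 lay below every WT library, and KO replicate 7 lay above them all. The log2 change was -0.47 ± 0.19 (limma adjusted p = 0.0995), and without KO replicate 7 it was -0.73 (adjusted p = 0.00431).

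Gpt2 was at 61.5, 59.6, 63.1 and 64.4 CPM in WT testes and at 65.2, 68.3, 113 and 82.5 CPM in KO testes. Every KO library lay above the WT libraries, which 18.8% of all genes tested showed. Gpt2 was the only one of the 5 genes that did. The log2 change was 0.35 ± 0.14 (limma adjusted p = 0.106), and of 17 alternatives it passed in 1, without KO replicate 5 (0.45, adjusted p = 0.0302). Without KO replicate 7, the highest library, it was 0.17 (adjusted p = 0.180), and with sample weights 0.11 (adjusted p = 0.276). Asl was at 8.91 ± 0.372 and 8.58 ± 0.784 CPM, Got1 at 10.5 ± 0.649 and 11.8 ± 0.894 CPM and Gls2 at 1.63 ± 0.123 and 1.92 ± 0.428 CPM, and none of these differences passed. KO replicate 7 was the highest of the 8 testes libraries for all 5 genes.

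Markers of several testis cell types differed with genotype as well. Of 7 Sertoli cell markers 5 were higher in KO, beside 9.74% of all genes tested, and their summed level was 889 to 1048 CPM in WT against 1137, 1172, 1644 and 1235 CPM in KO replicates 5 to 8. Of 6 round and elongating spermatid markers 3 were lower, beside 10.7% of all genes tested, with sums of 8768 to 9184 CPM in WT and 6177 to 8155 CPM in KO. KO replicate 7 had the highest Sertoli sum, the lowest spermatid sum and, for 6 Leydig cell markers, a sum of 1581 CPM against 962 to 1173 CPM in the other libraries. None of the Sertoli cell and spermatid markers passed with neighbouring libraries summed. The part of these shifts in the levels of Gpt2 and Ass1 was not tested, and in bulk tissue fewer cells of a type and less RNA per cell cannot be told apart.

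The genotype difference of Gpt2 and Ass1 was then compared between tissues in 1 fit of all 24 libraries with TMM scaling, over the 11112 genes expressed above the minimum in every tissue, which include Got1, Asl, Gpt2, Gls2 and Ass1. The KO change of Gpt2 was 0.62 ± 0.12 log2 units higher in testes than in liver (limma adjusted p = 0.00107), where 15.9% of all genes differed. This difference passed in 28 of 29 alternatives and was lost with neighbouring libraries summed (log2 0.63, adjusted p = 0.118). Between liver and cerebellum the KO change of Gpt2 differed by -0.43 ± 0.13 (limma adjusted p = 0.0437), where 7.67% of all genes differed, and this call was lost in 16 of 29 alternatives, the summed libraries among them (-0.43, adjusted p = 0.358). Between testes and cerebellum the difference of 0.19 ± 0.14 for Gpt2 did not pass (limma adjusted p = 0.385). Ass1 differed between testes and cerebellum by -1.13 ± 0.32 (limma adjusted p = 0.0209, against 14.5% of all genes) and between testes and liver by -0.52 ± 0.18 (limma adjusted p = 0.0453). The first was lost in 4 of 29 alternatives, among them the summed libraries (-1.10, adjusted p = 0.186). The second was lost in 23 of 29, among them the summed libraries (-0.50, adjusted p = 0.329) and the fit with the replicate number as a block (-0.52, adjusted p = 0.0669). Between liver and cerebellum the difference of -0.60 ± 0.31 for Ass1 did not pass (limma adjusted p = 0.226). With neighbouring libraries summed, 5 to 26 of the 11112 genes passed in each contrast. Got1, Asl and Gls2 did not pass in any of the 3 contrasts, although Gls2 passed for testes minus liver without KO testes replicate 5 (log2 0.44, adjusted p = 0.0373, against 0.32 with all libraries).

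**Figure D3:**
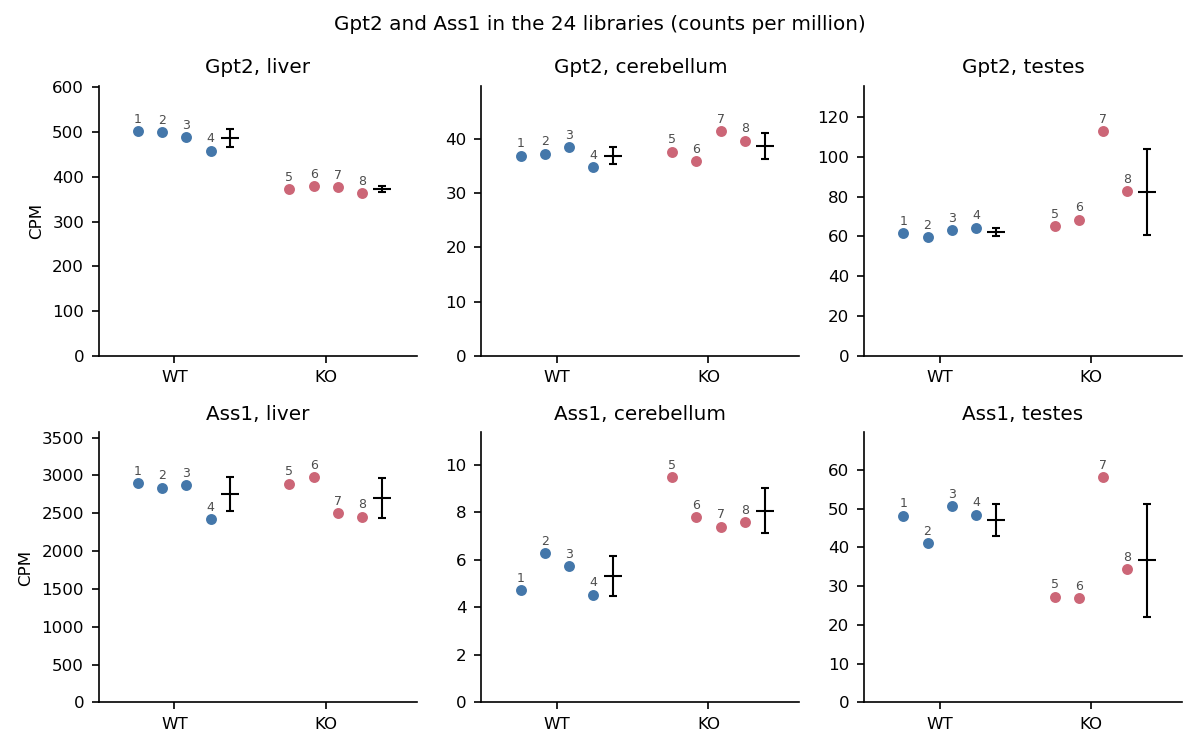
CPM (y axis, from 0, scaled to each panel) of Gpt2 and Ass1 in the 24 libraries, with points labelled by replicate number and the mean ± SD (n = 4) beside each genotype. Gpt2 is lower in all 4 KO liver libraries and higher in all 4 KO testes libraries, and Ass1 is higher in all 4 KO cerebellum libraries while KO replicate 7 stands above the other KO testes libraries.

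Between tissues, the 9 genes were liver genes in the main. Per kilobase of merged exons, WT liver held 1142 ± 92.6 CPM per kb of Ass1, 543 ± 40.0 of Cps1 and 328 ± 31.1 of Tat (SD, n = 4). Gls2 (89.2 ± 8.72) and Gpt2 (86.3 ± 3.56) followed and did not differ beyond their spread, and Asl was at 67.9 ± 5.76. Otc (45.2 ± 5.43), Got1 (44.0 ± 5.60) and Sds (37.5 ± 5.94) came last, where Otc and Got1 did not differ beyond their spread and Sds lay below Got1 by more than either SD. Otc, Tat and Sds passed the filter on low counts only through liver, as did Cps1 beside testes, so a higher level in liver was fixed by the filter and is no result for them. The genes tested in both tissues, 6 for cerebellum (Cps1, Ass1, Asl, Got1, Gpt2 and Gls2) and 5 for testes (the same without Cps1), were all higher in WT liver (limma with TMM scaling, also with neighbouring libraries summed), where 43.0% (cerebellum) and 33.9% (testes) of all 22629 genes tested were. The log2 difference was 12.1 for Cps1 against cerebellum and 6.81 for Ass1 against testes. These sizes depended on the processing, and alternatives with all libraries gave 10.8 to 12.2 for Cps1 and 5.48 to 6.89 for Ass1. Tat, Otc and Sds had at most 4 counts in any WT cerebellum or testes library, so their differences depend on the offset added before taking logs and no size is given.

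Got1 was the exception. In CPM it was higher in WT cerebellum (148 ± 2.21) than in WT liver (112 ± 14.2), while the TMM fit gave liver 0.79 ± 0.17 log2 units more (adjusted p = 0.000239) and quantile scaling 0.27 (adjusted p = 0.0651). The direction of this difference thus depended on the scaling. In testes the levels were 62.2 ± 2.09 CPM for Gpt2, 47.1 ± 4.12 CPM for Ass1 and 10.5 ± 0.649 CPM for Got1, while Cps1 was at 0.691 to 1.21 CPM.

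**Figure D4:**
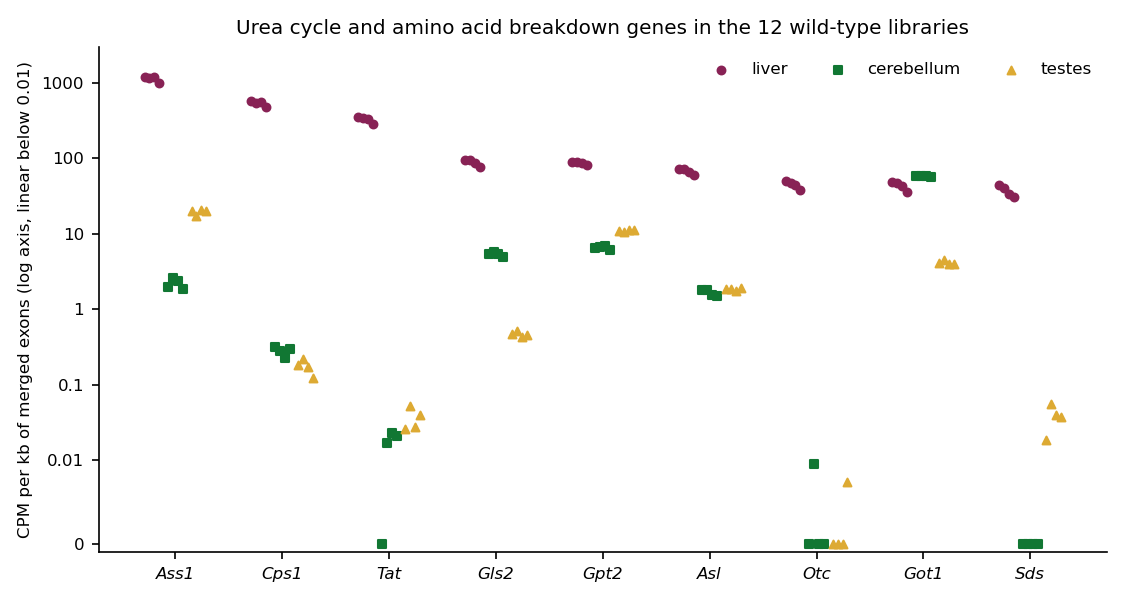
CPM per kilobase of merged exons (y axis, logarithmic and linear below 0.01) of the 9 genes in the 12 WT libraries, with 1 point a library and the genes in the order of their mean in liver. Liver points lie above those of the other tissues for all genes except Got1, where the cerebellum points (mean 58.2) lie above those of liver (mean 44.0).

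The other enzymes and carriers of amino acid breakdown were followed in 6 lists of 74 genes. In liver 73 were tested, 2 were higher and 2 lower, near the 2.79% and 3.12% of all genes, with a median log2 change of -0.01 against -0.00 over all genes. Prodh, proline dehydrogenase, fell by 0.66 on the log2 scale, from 172 ± 10.7 to 106 ± 4.27 CPM (limma adjusted p = 0.000975), and Csad, cysteine sulfinic acid decarboxylase, a step to taurine, by 0.58 (adjusted p = 0.0314). Agxt and Agxt2, which move nitrogen between alanine and glyoxylate, rose by 0.47 (adjusted p = 0.0221) and 0.36 (adjusted p = 0.00613). None of the 10 tested genes on the list of further urea cycle enzymes and carriers passed in liver, none of the 11 of aromatic amino acid breakdown besides Tat, and none of the 15 of branched-chain amino acid breakdown.

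In cerebellum 2 of 50 tested enzymes rose and none fell, where 3.93% of all genes rose and 2.51% fell: Got2, the mitochondrial partner of Got1, by 0.25 (limma adjusted p = 0.00181), and Tdo2, which opens tryptophan breakdown, by 0.75 (adjusted p = 0.0395). In testes 8 of 51 rose and 2 fell, where 9.74% of all genes rose and 10.7% fell, with a median of 0.17 against 0.00 over all genes. Those that rose included Bhmt (0.66), Sardh (0.62), Slc7a2 (0.55), Kyat3 (0.46), Aldh7a1 (0.36) and Oat (0.29), and Bhmt2 and Gldc fell by 0.59 and 0.41. Genes on the other strand overlap Csad, Got2, Slc7a2, Sardh, Kyat3, Aldh7a1 and Bhmt.

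Regulators that act on these enzymes, and clock genes, moved in liver too. Of 16 hormone and fasting regulators 3 rose and 1 fell, where 2.79% of all genes rose and 3.12% fell: Ppargc1a, a coactivator induced by fasting, by 0.67 (limma adjusted p = 0.0425), Tsc22d3, a glucocorticoid target, by 0.35 (adjusted p = 0.00725), and Creb3l3, a liver transcription factor of the fasting response, by 0.24, while Klf15, which activates amino acid breakdown genes, fell by 0.26 (adjusted p = 0.0287). Of 14 tested clock genes and clock outputs 6 fell and none rose, where 3.12% of all genes fell, with a median of -0.23, and the lowest were Dbp (-2.77), Per2 (-1.01) and Per3 (-0.98). Dbp overlaps Sphk2 on the other strand. The hour of collection and feeding state are not given in the sources used here, and the part of either in the levels of Tat, Sds and Gpt2 was not tested.

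In cerebellum, among 11 tested regulators, Fkbp5 (0.52) and Atf4 (0.33) rose and Nr3c1, the glucocorticoid receptor, fell by 0.23, where 3.93% of all genes rose and 2.51% fell. Of 15 clock genes 4 fell there, beside the same 2.51%, with changes from -0.30 for Nr1d1 to -0.27 for Dbp among the 3 lowest, Nr1d2 being at -0.29. In testes Fkbp5 (0.34), 1 of 11 regulators, and Clock (0.34), 1 of 15 clock genes, rose, where 9.74% of all genes did. With neighbouring libraries summed, none of the enzymes, regulators and clock genes of these lists passed in any tissue. Hepatocyte identity was checked with 3 lists in liver, where 2.79% of all genes were higher and 3.12% lower. Of 6 general hepatocyte markers 2 were higher in KO, Apoa1 and Fgb (median log2 change 0.25), and of 9 pericentral markers 1 was lower, Rhbg (median -0.08). Of 6 periportal markers 2 were lower (median 0.05): Sult5a1 fell by 1.32 on the log2 scale (limma adjusted p = 0.000310) without overlap, and Cyp2f2 fell by 0.37 (adjusted p = 0.00758). With neighbouring libraries summed Sult5a1 passed (log2 -1.33, adjusted p = 0.0424), and Cyp2f2, Apoa1, Fgb and Rhbg did not (adjusted p from 0.333 to 0.563). The summed periportal level was 1676 to 2156 CPM in WT and 1597 to 2114 CPM in KO, so the groups overlapped, and its part in the 3 genes that fell was not tested.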

How the data were processed

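Total RNA depleted of ribosomal RNA was sequenced as stranded paired-end libraries. Per the study's methods and the submitters' processing notes, the authors aligned reads to mm10 with STAR and deposited RSEM expected counts per gene for the GENCODE M21 annotation. Expected counts need not be whole because reads that match several genes are divided, which affects Ass1. Tool versions and the strand setting of counting are not given in the sources used here.

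From these counts, CPM were computed over all counts of a library. The main test in each tissue was limma 3.58.1 (voom, quantile normalization, R 4.3.3) on genes with at least 1 CPM in at least 4 of 8 libraries, two-sided, with Benjamini-Hochberg adjustment and a threshold of 0.05. Differences between tissues came from 1 limma fit of 24 libraries with TMM factors. Counts were rounded to whole numbers for edgeR 4.0.16 and DESeq2 1.42.0, which served as alternatives, beside TMM scaling, sample weights, other filters, a replicate block and leaving out libraries. Self-tests on simulated counts were run on the main fit of each tissue and on the testes minus liver comparison, with and without the replicate block. The other fits had no self-test. Near-identical transcripts were sought with blastn 2.17.0, and motifs with Python 3.11.15. P-values measure only the spread between these libraries. The totals given with the results are the depth, and intervals cover the spread between libraries.

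The 9 genes were named whatever their values, and from each pathway list, in each tissue, up to 3 genes that passed with the largest change. Creb3l3 and the cell type markers were named after their values were seen. A further gene of the chosen set and 1 list gene are not reported here. The genes and lists were chosen with earlier results of these data known. Replicate numbers were taken as not pairing libraries across tissues, since the correlations of same-numbered deviations were not all over 0.1 and ran from -0.21 to 0.20. For KO replicates 5 to 8 between liver and testes they were 0.159, 0.113, 0.118 and 0.112, against -0.064 to 0.040 for WT.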

Additional observations from a re-analysis of the deposited data

Results flagged for a closer look

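Among 40 groups of 4 libraries checked, 1 held a library far from the others, where chance alone flags about 1 in 20 groups. Ass1 in WT liver replicate 4 was at 2425 CPM against 2839 to 2900 CPM in the other WT libraries. That library also had the largest share of noncoding RNA (31.0% of counts, 9.33% from Gm42418 alone), and with 6 noncoding RNAs left out of the totals its Ass1 level was 3512 CPM against 3507 to 3729.5 CPM in the others.

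The genotype difference of Gpt2 in liver differed from those in the other tissues by a test of the difference itself, at 0.62 for testes minus liver and -0.43 for liver minus cerebellum on the log2 scale, and testes minus cerebellum (0.19, limma adjusted p = 0.385) did not pass. That of Ass1 differed by -0.52 for testes minus liver and by -1.13 for testes minus cerebellum, and liver minus cerebellum (-0.60, limma adjusted p = 0.226) did not pass. None of these differences passed with neighbouring libraries summed. The values of KO testes replicate 7, the highest library for both genes, enter both comparisons with testes.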

How the results depend on the processing

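The directions of the limma changes of Tat, Sds, Gpt2 and Gls2 in liver and of Ass1 in cerebellum held under all alternatives tried, and the calls did not. Of the 9 genes 3 were called in liver with limma, 4 (with Gls2) by edgeR, with TMM scaling and with sample weights, 5 with DESeq2 and in the fit of all 24 libraries, 6 without KO replicates 5 and 6, 0 with neighbouring libraries summed and 2 to 3 when each library was left out in turn. The share of all genes called in liver moved as well, from 5.91% with limma to 6.3% by edgeR and 6.8% with TMM scaling. It was 13.3% with sample weights, 11% with DESeq2 and 6.96% in the fit of all 24 libraries. Without KO replicates 5 and 6 it was 8.23%, with neighbouring libraries summed 0.0853%, and on leaving out a library 2.23% to 6.25%. In cerebellum 1 gene was called, 0 with neighbouring libraries summed or in the fit of all 24 libraries and 0 to 1 on leaving out a library. In testes 0 were called, 1 with sample weights or in the fit of all 24 libraries (Ass1) and 0 to 1 on leaving out a library. For differences between tissues, the count for liver and cerebellum was 1, Gpt2 (0 with quantile scaling and with neighbouring libraries summed, 0 to 1 on leaving out a library; with genes that pass in any tissue Gpt2 was lost, and Sds, with at most 1 count in any cerebellum library, says nothing there), for testes and liver 2 (0 with neighbouring libraries summed, 1 with quantile scaling, with edgeR, with genes that pass in any tissue and with the replicate block, 1 to 2 on leaving out a library, and Gls2 was gained without KO testes replicate 5) and for testes and cerebellum 1 (0 with quantile scaling, with genes that pass in any tissue and with neighbouring libraries summed, 0 to 1 on leaving out a library).

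These changes turned sign, none of them past the threshold unless stated. Ass1 in liver (0.02) was -0.014 with edgeR, -0.010 with DESeq2, -0.0094 with no filter, -0.015 with TMM scaling, -0.048 with sample weights, -0.087 in the fit of all 24 libraries, -0.25 without KO replicates 5 and 6 (called) and -0.065 to 0.11 on leaving out a library. Got1 in liver (-0.05) was 0.062 with sample weights, 0.37 without KO replicates 5 and 6 (called) and -0.21 to 0.098 on leaving out a library. Gls2 in testes (0.09) was -0.081 with sample weights and -0.022 to 0.23 on leaving out a library. Between liver and cerebellum, Asl (-0.13) was 0.0030 with quantile scaling and Got1 (-0.11) -0.28 to 0.043 on leaving out a library. Between testes and liver, Asl (-0.02) was 0.099 with genes that pass in any tissue and -0.052 to 0.017 on leaving out a library, and Got1 (0.09) was -0.059 to 0.27. Between testes and cerebellum, Got1 (-0.02) was 0.065 with genes that pass in any tissue and -0.034 to 0.024 on leaving out a library. The causes were not tested. As replicate numbers did not pair the libraries under the rule used, a replicate block was an alternative only, and with it Ass1 between testes and liver was at -0.52 (adjusted p = 0.0669) and Gpt2 at 0.63, and it changed no other call.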
